A study of Bombyx mori with 3 samples.

Results

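Silk glands of day 1 first-instar larvae (1L1D) were compared with silk glands of late embryos at 8 days post-egg laying (E8D), across all genes of the single-cell RNA sequencing libraries of the 2 stages. Every barcode was used that had at most 30% of its unique molecular identifiers (UMIs, one per captured mRNA molecule) from the 13 mitochondrial genes and a ratio of UMIs to detected genes within 2 SD of the mean of its library. These limits kept 4339 of 6000 barcodes of 1L1D and 4880 of 5351 barcodes of E8D, together 9219 of the 18864 barcodes in the 3 libraries of the series, of which the remaining library, from the first larval molt (1LM), is not described here. UMIs were summed per gene and library and scaled to give CPM, the UMIs of a gene in 1000000 UMIs of its library. Of 16880 gene rows, 5774 reached 100 UMIs in 1L1D, in E8D or in both and were compared.

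Both libraries came from *Bombyx mori* of the Nistari strain without any treatment or transgene. Each library was made from about 2000 pooled intact glands, which were dissociated with enzymes and loaded on the 10x Genomics platform; the sample labels also describe the cells as expanded in vitro, a step that the study's methods do not describe. Each stage had 1 library, so differences between stages and between libraries cannot be told apart, and no test was made. Ratios are given as 1L1D over E8D on the log2 scale, with exact 95% intervals in parentheses that cover counting error only, and a gene was called where its ratio was at least 2-fold. In sums over whole libraries, fewer cells of a type and less RNA per cell cannot be told apart.

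The silk gland is a paired tube of large secretory cells. Its posterior part makes fibroin, a complex of a heavy chain, a light chain and the glycoprotein P25, its middle part makes the sericins that glue the fibers, and its anterior part is a narrow duct lined with cuticle. The gland forms in the embryo, where its cells stop dividing before hatching, and it then grows by enlargement of cells that copy their DNA.

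Depth differed between the libraries. The kept barcodes held 18546139 UMIs at 1L1D and 6878383 UMIs at E8D, with medians of 1845 and 738 UMIs and of 446 and 268 detected genes per barcode. Because of this, 100 UMIs corresponded to 5.39 CPM at 1L1D but to 14.5 CPM at E8D, and 1916 genes passed through 1L1D alone, 105 through E8D alone and 3753 in both libraries. The limit on UMIs per gene removed 370 barcodes of 1L1D and 196 of E8D, all above the mean, and the mitochondrial limit was exceeded by 1292 and 278 barcodes, so that the kept barcodes held 56.9% of the deposited UMIs at 1L1D and 54.7% at E8D. The highest mitochondrial share kept was 29.96% at 1L1D and 30% at E8D, and the lowest share removed was 30.03% at 1L1D and 30.05% at E8D. The deepest 5% of barcodes supplied 26.7% of the UMIs of 1L1D and 34.3% of those of E8D. The kept libraries shared 8 barcode sequences, and no doublets were removed beyond the limit on UMIs per gene.

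More genes were lower than higher at 1L1D. At least 2-fold higher were 785 of the 5774 genes (13.6%), and at least 2-fold lower were 1246 (21.6%), together 35.2%. Higher by at least 10-fold were 195 genes (3.38%) and lower by at least 10-fold were 72 (1.25%), a split that the greater depth of 1L1D favors, since a gene could pass there at a lower CPM. Among the 3753 genes that passed in both libraries, 22 were at least 10-fold higher (0.586%) and 11 at least 10-fold lower (0.293%). The median log2 ratio of all 5774 genes was -0.26, and gene groups are read against this value below. The split depended on the scaling and on the depth threshold: edgeR TMM factors gave 1071 higher and 811 lower genes with a median of 0.02, DESeq2 size factors gave 1007 and 885 genes with a median of -0.03, and among the genes with at least 100 UMIs in both libraries 210 were higher (5.60%) and 1111 lower (29.6%).

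**Figure D1:**
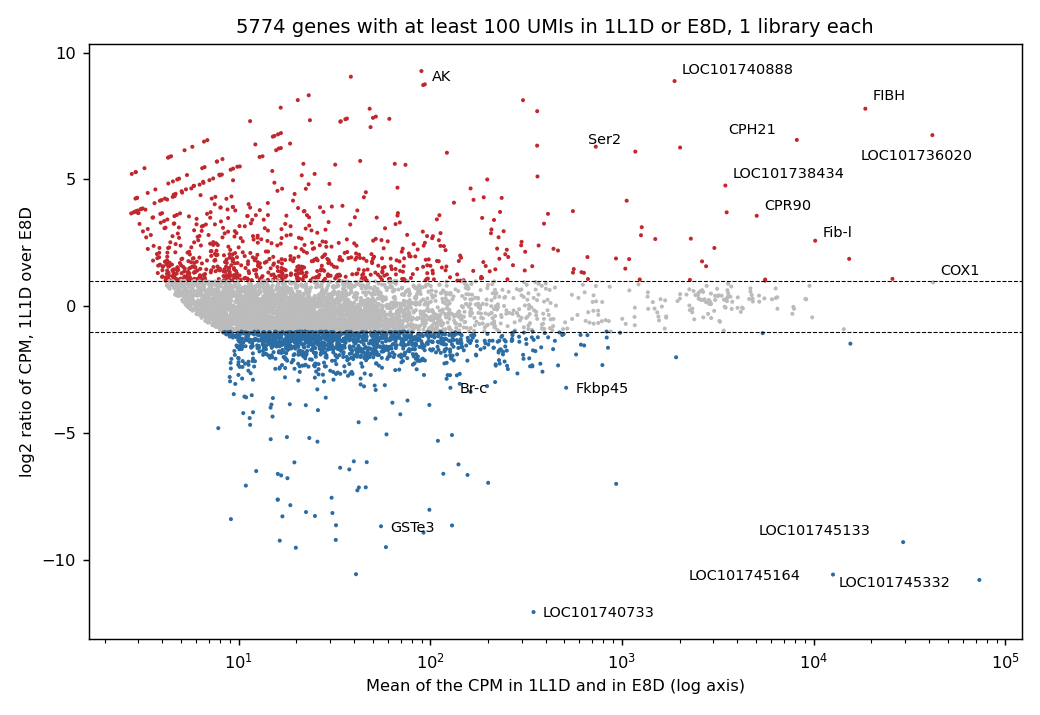
Each point is 1 of the 5774 genes, with the mean of its CPM in 1L1D and in E8D on the x axis (log scale) and its log2 ratio of CPM, 1L1D over E8D, on the y axis; a count of 0 is drawn at the bound that 3 counts give. Genes at least 2-fold higher at 1L1D are red and those at least 2-fold lower are blue, with dashed lines at 2-fold; FIBH (7.78) and LOC101736020 (6.74) lie far above and LOC101745332 (-10.79) far below the cloud around the median of -0.26.

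The first-placed genes of the 2 libraries differed, although COX1, LOC101736156, ATP6 and EF1a were among the 10 most abundant genes of both. In the E8D library a single gene, LOC101745332, a protein-coding gene without a described function, held 14.6% of all UMIs, and the long noncoding RNAs LOC101745133 and LOC101745164 held 5.85% and 2.52%. At 1L1D these transcripts were at low levels. LOC101745332 was measured at 82.4 CPM in 1L1D and 146225 CPM in E8D, a log2 ratio of -10.79 (-10.87 to -10.72). LOC101745133 stood at 92.6 CPM in 1L1D and 58485 CPM in E8D (-9.30, -9.37 to -9.23), and LOC101745164 at 16.4 CPM in 1L1D and 25212 CPM in E8D (-10.58, -10.75 to -10.42). In the later assembly ASM3026992v2 the 3 genes lie close together on chromosome 2, with 1 annotated gene between LOC101745332 and LOC101745133 and 2 between LOC101745133 and LOC101745164. Of their neighbors, LOC110385293 and LOC101745473 had 0 UMIs at 1L1D and 3 and 6 at E8D, while LOC101743716, which follows LOC101745473 and was named after its values were seen, was also lower with 6.90 CPM in 1L1D and 133 CPM in E8D (-4.26). UMIs of LOC101745332 were spread over most E8D barcodes. It made up a median of 13.9% of a barcode's UMIs, with 5.00% at the 10th and 29.1% at the 90th percentile. In 98.3% of the E8D barcodes it made up at least 1% of the UMIs. Free RNA in the droplets was not separated from expression, so these values do not show how many cells expressed the gene. At 1L1D its median was 0 and no barcode exceeded 0.536%.

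At 1L1D the long noncoding RNA LOC101736020 took the first place, with 82472 CPM, or 8.25% of all UMIs, against 770 CPM in E8D (6.74, 6.70 to 6.78). It was more unevenly spread over the 1L1D barcodes than LOC101745332 over the E8D barcodes, with a median of 1.09% and a 90th percentile of 18.3% of a barcode's UMIs, and it made up at least 10% of the UMIs in 27.1% of the barcodes. Cuticular protein genes were its neighbors on chromosome 11 of ASM3026992v2. LOC101736156, described as cuticle protein 6.4 though listed as a miscellaneous RNA by RefSeq, had 34945 CPM in 1L1D and 16572 CPM in E8D (1.08, 1.07 to 1.09), and CPH27, which lies between these 2 genes, had 365 CPM in 1L1D and 49.7 CPM in E8D (2.87). On the other side of LOC101736020, with 9 annotated genes in between, CPH21 was the seventh most abundant gene of 1L1D, at 16162 CPM there and 172 CPM in E8D (6.55, 6.47 to 6.64). Most genes between them, among them CPH22, CPH23, CPH24, CPH25 and CPH26, had at most 10 UMIs in either library.

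Other abundant transcripts of unknown function differed between the libraries. LOC101740888, which had no description or biotype in the tables used, had the highest ratio where both libraries held more than 3 UMIs (8.87, 8.49 to 9.28), with 3752 CPM in 1L1D and 8.00 CPM in E8D. The noncoding RNA LOC101737054 was abundant in both libraries but higher at 1L1D, with 24030 CPM there and 6600 CPM in E8D (1.86, 1.85 to 1.88). COX1, the mitochondrial gene with the most UMIs, took 5.51% of the UMIs of 1L1D and 2.88% of those of E8D, and EF1a, the translation elongation factor, was among the first 10 genes of both libraries with 9986 CPM in 1L1D and 8296 CPM in E8D (0.27). The concentration of the libraries in few genes was alike, since 42 genes at 1L1D and 41 genes at E8D made up the first 50% of UMIs.

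**Figure D2:**
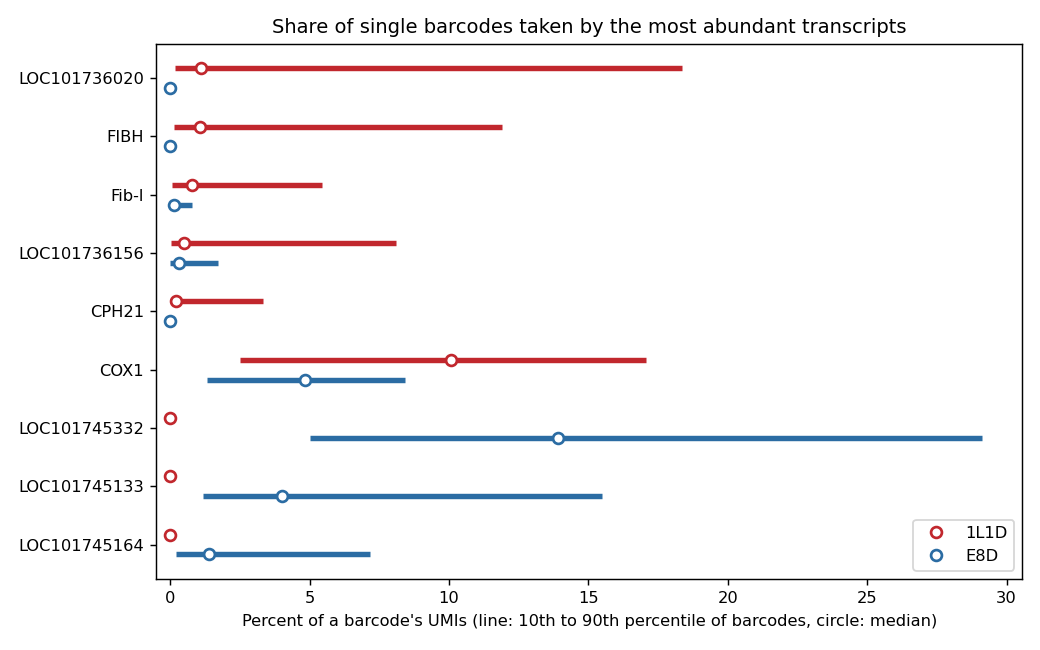
Percent of the UMIs of single barcodes taken by 9 abundant genes, with 1L1D (red, 4339 barcodes) above E8D (blue, 4880 barcodes); lines run from the 10th to the 90th percentile of barcodes and circles mark the median. LOC101745332 had a median of 13.9% in E8D and 0 in 1L1D, while LOC101736020 reached 18.3% at the 90th percentile of 1L1D against 0.185% in E8D.

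All silk protein genes that passed the threshold were higher at 1L1D, by very different factors. The list held 10 rows, of which 7 had at least 100 UMIs in 1 library and all 7 were at least 2-fold higher, 5 of them with at least 100 UMIs in both libraries; their summed level was 57844 CPM in 1L1D and 3227 CPM in E8D. FIBH, the fibroin heavy chain, had 686998 UMIs or 37043 CPM in 1L1D and 1156 UMIs or 168 CPM in E8D, a 220-fold difference (log2 7.78, 7.70 to 7.87). Fib-l, the light chain, was already abundant in the embryo. It had 17446 CPM in 1L1D and 2918 CPM in E8D (2.58, 2.56 to 2.60), and P25 had 190 CPM in 1L1D and 31.4 CPM in E8D (2.60, 2.40 to 2.80). The ratios of the light chain and P25 were thus alike within counting error and that of the heavy chain was larger. FIBH-2, a second row with the heavy chain's symbol, rose alongside with 2254 UMIs in 1L1D and 5 in E8D (7.39, 6.16 to 9.01); how reads that fit both rows were counted is not given in the sources used here, so the division between them is uncertain.

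The sericin genes of the middle silk gland differed in the same direction. Ser2, a sericin of larval silk, had 2313 CPM in 1L1D and 33.9 CPM in E8D (6.09, 5.91 to 6.29). LOC101740082, described as sericin 1-like, had 709 CPM in 1L1D and 74.4 CPM in E8D (3.25, 3.12 to 3.38). Ser3-2, 1 of 3 rows named Ser3, had 295 UMIs in 1L1D and 3 in E8D (5.19 by its counts, 3.63 to 7.47), and the rows Ser3 and Ser3-3 stayed under the threshold with 54 and 22 UMIs in 1L1D against 1 and 0 UMIs in E8D. LOC105842827, a second sericin 1-like row, had 11 UMIs in 1L1D and 0 in E8D.

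Within each library the silk transcripts had different spreads. After thinning every barcode to 500 UMIs, FIBH was detected in 87.8% of the 1L1D barcodes (Clopper-Pearson 95% interval 86.8 to 88.7) and in 5.04% of the E8D barcodes (4.44 to 5.69), and without thinning in 99.95% and 7.87%, at median depths of 1845 and 738 UMIs. Fib-l was detected in 82.3% of the thinned 1L1D barcodes and in 49.2% of the E8D barcodes. Cell types were not assigned, no share in a type that lacks the gene can be set beside these values, and free RNA in the droplets was not separated from expression. Ser2 was found in 21.6% of the 1L1D barcodes and 1.31% of the E8D barcodes, and LOC101740082 in 8.16% and 3.36%. The sericin UMIs came from few deep barcodes: the 5% of 1L1D barcodes with the most UMIs held 56.9% of the Ser2 UMIs and 57.8% of those of LOC101740082, but 16.8% of those of FIBH and 14.4% of those of Fib-l. Leaving out these barcodes in both libraries gave log2 ratios of 5.12 for Ser2, 2.38 for LOC101740082, 7.90 for FIBH and 2.76 for Fib-l. When the limit on UMIs per gene was lifted, FIBH stood at 8.93, Fib-l at 3.40 and LOC101740082 at 2.05.

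Products that are secreted along with silk were mostly higher at 1L1D too. Of the 9 genes of this list, all above the threshold, 6 were at least 2-fold higher and none lower, with a median log2 ratio of 1.48. LOC101738434, an inhibitor of fungal proteases of the type found in cocoons, had 6675 CPM in 1L1D and 247 CPM in E8D (4.76, 4.69 to 4.83), and its relative LOC101738162 had 1532 CPM in 1L1D and 549 CPM in E8D (1.48). The seroins, small secreted proteins with antimicrobial activity, were abundant at both stages. LOC105842464, a seroin-like gene, had 4111 CPM in 1L1D and 1382 CPM in E8D (1.57), and LOC692598, seroin 1, had 5789 CPM in 1L1D and 3560 CPM in E8D (0.70, within 2-fold). Bcp, the cysteine protease fibroinase, had 407 CPM in 1L1D and 133 CPM in E8D (1.61), and its inhibitor bcpi had 802 and 447 CPM (0.84). LOC110384718, another gene of the fungal protease inhibitor type, was the only member below 0, with 252 CPM in 1L1D and 346 CPM in E8D (-0.46, within 2-fold).

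**Figure D3:**
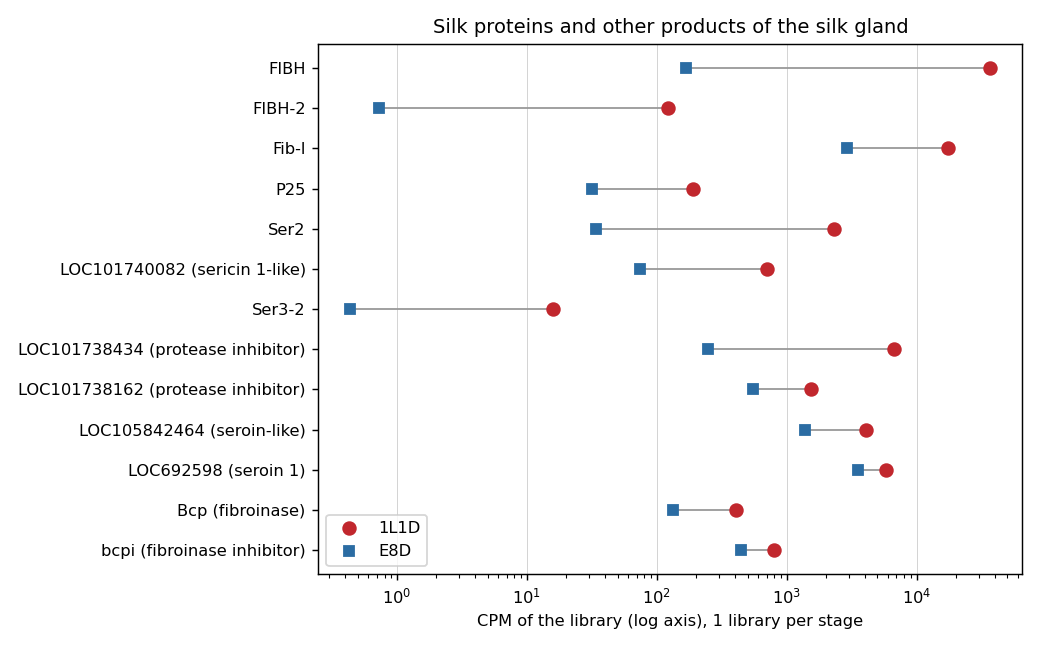
CPM of silk protein genes and other silk gland products in the 1L1D library (red circles) and the E8D library (blue squares) on a log axis, with 1 library per stage and no error bars. Of the 9 other products 3, among them LOC110384718 (-0.46), are not plotted; the genes shown had more CPM in 1L1D, from LOC692598 at 5789 against 3560 CPM to FIBH at 37043 against 168 CPM.

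The transcription factors linked to silk gene expression did not follow the silk genes. Of the 9 rows, 4 passed the threshold and none was at least 2-fold higher. SGF1, the forkhead factor of the silk gland, was lower at 1L1D with 58.5 CPM against 137 CPM in E8D (-1.23, -1.36 to -1.10). This call was lost with TMM or DESeq2 factors, over all deposited barcodes and without the limit on UMIs per gene. With a mitochondrial limit of 20%, 2 of the factors were at least 2-fold lower. The helix-loop-helix gene sage, whose product acts with the forkhead factor in salivary glands of Drosophila, had 189 CPM in 1L1D and 366 CPM in E8D (-0.96, within 2-fold), and dimm, a helix-loop-helix gene of secretory cells in Drosophila, had 14.8 and 14.2 CPM (0.05, -0.29 to 0.40). Fmbp-1, the fibroin modulator binding protein, stood at 7.76 CPM in 1L1D and 8.43 CPM in E8D (-0.12, -0.57 to 0.35). The other 5 rows had few UMIs: the POU factor SGF3 had 53 in 1L1D and 17 in E8D, the LIM homeobox gene Awh 71 and 49, the homothorax rows LOC101737806 and LOC101737806-2 54 and 14 in 1L1D against 13 and 8 in E8D, and the homeobox gene LOC692747 11 and 3.

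Genes of the ecdysone response were lower at 1L1D. Ecdysone is the steroid that times molts, and its receptor switches on a cascade of early transcription factors and nuclear receptors. Of 11 genes of this list 7 passed the threshold, with a median of -1.88. At least 2-fold lower were 6 and higher was 1, against 21.6% and 13.6% of all genes. With TMM factors 4 were lower, and with DESeq2 factors 5. The 5 genes with at least 100 UMIs in both libraries were all lower, against 29.6% of all such genes. EcR, the receptor, had 21.8 CPM in 1L1D and 80.3 CPM in E8D (-1.88, -2.07 to -1.69). Among the early genes, E75 had 44.6 CPM in 1L1D and 105 CPM in E8D (-1.23), E74 had 20.5 and 76.9 CPM (-1.90), and Br-c, the broad-complex, had 24.7 and 230 CPM (-3.22, -3.37 to -3.07). The nuclear receptor Grf, named Hr4 in flies, showed the largest difference with 3.40 CPM in 1L1D and 81.1 CPM in E8D (-4.58, -4.98 to -4.20). Grf passed through E8D alone. A gene that did so had under 5.39 CPM in 1L1D and at least 14.5 CPM in E8D, so its lower call followed from the threshold. LOC692364, the Hr39 homolog, had 34.1 and 77.9 CPM (-1.19). LOC101745160, the homolog of the xenobiotic receptor Hr96, went the other way with 29.7 CPM in 1L1D and 11.05 CPM in E8D (1.42, 1.08 to 1.79). Under the threshold, Hr3 had 69 UMIs in 1L1D and 78 in E8D, Ftz-f1 89 and 61, Cyp18a1, which inactivates ecdysone, 24 and 4, and LOC693064, the Hr38 homolog, 12 and 4.

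Genes that bind or degrade juvenile hormone, the hormone that keeps molts larval, were mostly higher at 1L1D, at low levels. Of 9 genes 5 passed, 4 higher and 1 lower, against 13.6% and 21.6% of all genes, and none had 100 UMIs in both libraries. The 4 higher genes passed through 1L1D alone, where the threshold was lower in CPM. The lower one, brP-1649, passed through E8D alone, so its call followed from the threshold. The binding protein genes ce-0330 and an-0128 had 601 and 368 UMIs in 1L1D against 9 and 3 UMIs in E8D (4.63, 3.70 to 5.77, and 5.51, 3.95 to 7.79), while brP-1649, listed with them, had 19 UMIs in 1L1D and 150 in E8D (-4.41, -5.18 to -3.72). The esterase genes LOC105842016 and jhe1 had log2 ratios of 1.47 and 1.23.

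Growth and cell cycle genes showed no common direction. Of 11 genes that passed, 3 were at least 2-fold higher and 1 lower at 1L1D, with a median of -0.38. InR, the insulin receptor, had 76.5 CPM in 1L1D and 22.7 CPM in E8D (1.75), Lkb1, a kinase that activates the energy sensor AMPK, had 46.2 and 19.6 CPM (1.23), and Btl, the fibroblast growth factor receptor, had 53.5 and 5.38 CPM (3.32, 2.84 to 3.83). In contrast myc, a transcription factor of growth and ribosome production, was lower at 1L1D with 34.6 CPM against 153 CPM in E8D (-2.14). The cyclin-dependent kinase inhibitor LOC101744399 was the most abundant member, with 1396 CPM in 1L1D and 1657 CPM in E8D (-0.25).

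**Figure D4:**
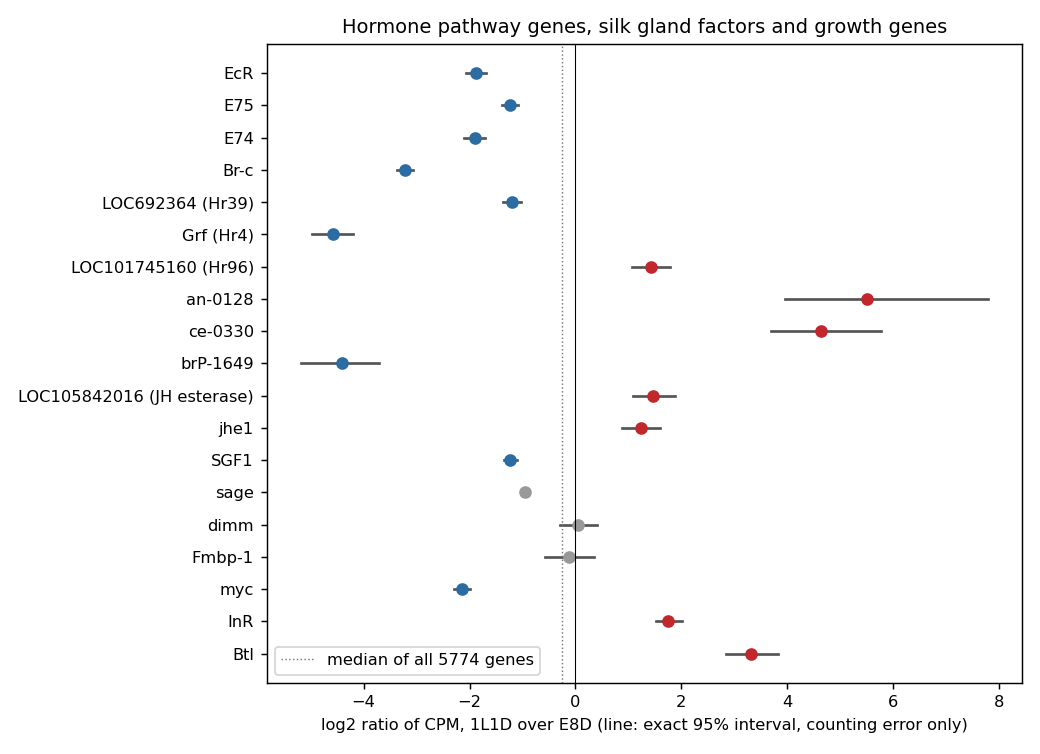
Log2 ratio of CPM, 1L1D over E8D, of hormone pathway genes, silk gland transcription factors and growth genes; lines are exact 95% intervals that cover counting error only, red and blue mark genes at least 2-fold higher and lower at 1L1D, and the dotted line marks the median of all genes at -0.26. EcR, E75, E74, Br-c, LOC692364 and Grf lie below -1, and InR and Btl above 1.

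Cuticular protein genes went in both directions. Of 205 annotated rows only 16 passed the threshold. Of these 6 were at least 2-fold higher and 5 lower at 1L1D, against 13.6% and 21.6% of all genes. Among the 10 with at least 100 UMIs in both libraries 5 were higher and 2 lower, against 5.60% and 29.6% of all such genes. Summed over all 205 rows their level was 39750 CPM in 1L1D and 20417 CPM in E8D. Beside CPH21, the member that contributed most at 1L1D was CPR90, a chitin-binding cuticle protein with the RR-2 motif, with 9301 CPM in 1L1D and 788 CPM in E8D (3.56, 3.52 to 3.60). The glycine-rich CPG6 had 3504 CPM in 1L1D and 7334 CPM in E8D (-1.07), and CPH43 had 759 CPM in 1L1D and 3070 CPM in E8D (-2.02, -2.05 to -1.99). A few genes were practically limited to 1 of the libraries. CPR24 had 4 UMIs in 1L1D and 423 in E8D (-8.16, -10.04 to -6.79), and CPR55 had 6 and 227 UMIs (-6.67). Both genes passed through E8D alone, so their lower calls followed from the threshold. CPH15 had 688 UMIs in 1L1D and 0 in E8D, at least 85.1-fold higher at 1L1D against a floor of 3 counts for the library. The UMIs of CPG6 lay largely in deep barcodes, since the deepest 5% of barcodes held 36.9% of them in 1L1D and 61.0% in E8D.

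Chitin genes that passed were mostly lower at 1L1D, and pigment genes were mixed. Of 6 chitin genes that passed, 4 were at least 2-fold lower and 1 higher, against 21.6% and 13.6% of all genes. Only 1, a lower one, had at least 100 UMIs in both libraries. The lower call of a gene that passed through E8D alone followed from the threshold. LOC733010, with 85 UMIs in 1L1D and 680 in E8D, was such a gene. LOC733010, which encodes the chitin-binding peritrophic-like protein gasp, had 4.58 CPM in 1L1D and 98.9 CPM in E8D (-4.43, -4.77 to -4.10), and the obstructor-E homolog LOC101743739 had 86.3 CPM in 1L1D and 236 CPM in E8D (-1.45). LOC100884166, a chitin synthase, did not reach 2-fold (0.58, 0.26 to 0.92). Of 6 yellow and melanin pathway genes that passed, 3 were lower, 1 was higher and 2 were within 2-fold, and with at least 10 UMIs as the limit the median of the list was -0.12, against -1.63. Here tan, which encodes a hydrolase that releases dopamine, had 48.6 CPM in 1L1D and 387 CPM in E8D (-2.99, -3.10 to -2.88), Y-d, a yellow family gene, had 12.5 and 185 CPM (-3.89, -4.10 to -3.69), and Y-c had 9.11 and 77.5 CPM (-3.09). Aanat, whose product acetylates dopamine and other arylalkylamines, was higher at 1L1D with 229 CPM against 57.4 CPM in E8D (1.99, 1.84 to 2.15), and Y-b and yellow-f had ratios of 0.02 and -0.26.

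Genes of the translation machinery mostly stayed within 2-fold and lay above the median of all genes. Of 79 cytoplasmic ribosomal protein genes that passed, 76 stayed within 2-fold, and 70 lay above the median of all genes, against 2887 of all 5774 genes; their median was 0.25 and their summed level 289735 CPM in 1L1D and 241606 CPM in E8D. RpLP2 had 12080 CPM in 1L1D and 6934 CPM in E8D (0.80), and RpL19 7448 and 3707 CPM (1.01), the only member at least 2-fold higher. RpL7Ae, named for a ribosomal protein family that also includes a protein of small nucleolar particles, was an exception with 78.1 CPM in 1L1D and 491 CPM in E8D (-2.65, -2.74 to -2.56). Translation factors had a median of 0.45 over 16 genes, and Tctp, the translationally controlled tumor protein, had 7531 CPM in 1L1D and 3638 CPM in E8D (1.05). All 9 subunit genes of the vacuolar ATPase, the proton pump of endomembranes, that passed lay above the median of all genes (median 0.72), 1 of them at least 2-fold higher (5 with TMM factors), with VATPc at 926 CPM in 1L1D and 534 CPM in E8D (0.79).

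Genes of the secretory pathway were not higher along with the silk genes. Of 21 genes that passed, 6 were at least 2-fold lower at 1L1D and none higher, and the median was -0.44. With at least 100 UMIs in both libraries 6 of 20 were lower, near the 29.6% of all such genes, and their median of -0.48 then lay above that of all such genes (-0.56); TMM factors left 3 lower. The lowest were chaperones of the endoplasmic reticulum that fold glycoproteins, with Crt, calreticulin, at 123 CPM in 1L1D and 369 CPM in E8D (-1.59, -1.67 to -1.51), the calnexin gene LOC101736274 at 20.4 and 66.4 CPM (-1.70) and ERp57, a disulfide isomerase, at 123 and 326 CPM (-1.40). Pdi, the main protein disulfide isomerase, had 781 CPM in 1L1D and 684 CPM in E8D (0.19), and the translocon subunit Sec61alpha had 328 and 367 CPM (-0.16). LOC733070, the beta subunit of the translocon, had 637 CPM in 1L1D and 1317 CPM in E8D (-1.05), a call that was lost with TMM (-0.76) and DESeq2 (-0.81) factors.

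Chaperones outside the endoplasmic reticulum went in both directions. Of 32 genes that passed, 9 were at least 2-fold higher at 1L1D, against 13.6% of all genes. At least 2-fold lower were 7 (4 with TMM factors), near the 21.6% of all genes. Of the 30 with at least 100 UMIs in both libraries 8 were higher and 7 lower, against 5.60% and 29.6% of all such genes. Among the higher ones, LOC110385338, an Hsp70 A2-like gene, had 511 CPM in 1L1D and 88.1 CPM in E8D (2.54, 2.42 to 2.66), Hsp70 had 501 and 94.9 CPM (2.40), and the small heat shock gene Hsp21.4 had 1463 and 397 CPM (1.88). The Hsp70 genes are near-identical copies, so the division of UMIs between them is uncertain, and the protocol included an enzymatic dissociation, whose part in these values was not tested. The 2 most abundant members were within 2-fold, with Hsc70-4 at 3663 CPM in 1L1D and 2721 CPM in E8D (0.43) and Hsp90 at 2754 and 1736 CPM (0.67). The mitochondrial chaperonins were lower, LOC101741707 (Hsp60) at 68.9 CPM in 1L1D and 230 CPM in E8D (-1.74) and LOC101745352 (Hsp10) at 88.1 and 400 CPM (-2.18).

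Nuclear genes of the respiratory chain lay below the median of all genes with 1 exception among the 33 that passed, with a median of -0.76. All 33 had at least 100 UMIs in both libraries, and the median of all such genes was -0.56, above that of the list. At least 2-fold lower were 8 and none was higher, against 21.6% lower of all genes and 29.6% of those with at least 100 UMIs in both libraries. The count depended on the scaling, since 1 was lower with TMM factors, DESeq2 factors or the mean over barcodes and 17 without the 4 stage genes (LOC101736020, LOC101745332, LOC101745133 and LOC101745164). LOC101743287, cytochrome c oxidase subunit 7C, had 160 CPM in 1L1D and 547 CPM in E8D (-1.77, -1.84 to -1.70), and LOC692926, an ATP synthase subunit, had 324 and 459 CPM (-0.50). LOC110386648, the most abundant row of this list with 8327 CPM in 1L1D and 11317 CPM in E8D (-0.44), is named after a gene of the mitochondrial genome, so its place in the list is uncertain. The mitochondrial genes themselves entered the limit on barcodes and so are only described. Their summed level was nearly the same, at 86147 CPM in 1L1D and 86218 CPM in E8D, but the genes differed from one another: COX1 was higher at 1L1D (0.93) and COX2 lower, with 8203 CPM against 22876 CPM in E8D (-1.48). In barcodes of 1105 to 3000 UMIs, a range set with the data in view, COX1 stood at 2.24, COX2 at -0.26 and the median of the mitochondrial list at 0.87, against -0.46 over all kept barcodes. Of 8 proteasome and ubiquitin genes, all with at least 100 UMIs in both libraries, 2 were at least 2-fold lower and none higher. This was near the 29.6% of all such genes that were lower, and with TMM factors 1 was higher and none lower. Of 4 histone genes that passed 1 was higher and 2 were lower, among them the variant his2Av at 160 CPM in 1L1D and 423 CPM in E8D (-1.40).

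**Figure D5:**
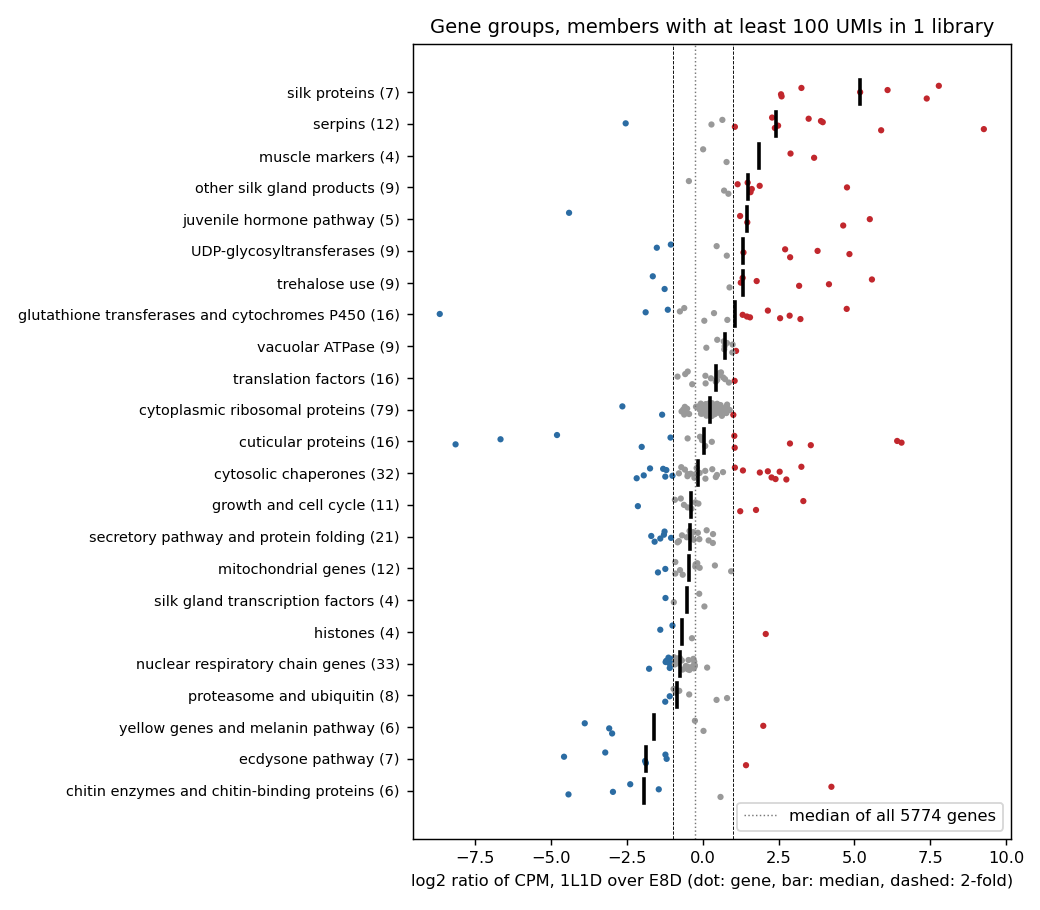
Log2 ratio of CPM, 1L1D over E8D, of the members of each gene group with at least 100 UMIs in 1 library (number in parentheses); each dot is a gene, red and blue at least 2-fold higher and lower at 1L1D, black bars are group medians and the dotted line is the median of all 5774 genes. The silk proteins (5.19) and serpins (2.43) have the highest medians, and the ecdysone pathway (-1.88) and the chitin genes (-1.92) the lowest. At least 100 UMIs in both libraries were reached by 5 silk protein, 4 serpin, 5 ecdysone and 1 chitin gene rows.

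Serpins, inhibitors of serine proteases in hemolymph and secretions, were mostly higher at 1L1D. Of 12 that passed, 9 were at least 2-fold higher and 1 lower, against 13.6% and 21.6% of all genes. Of the 4 with at least 100 UMIs in both libraries 2 were higher, against 5.60% of all such genes. The other higher serpins passed through 1L1D alone. The serpin-18 gene had 3328 UMIs or 179 CPM in 1L1D and 2 UMIs in E8D (9.27 by its counts, 7.42 to 12.32), serpin-22 had 477 and 0 UMIs, at least 59.0-fold higher at 1L1D, and serpin-10 had 189 CPM in 1L1D and 36.5 CPM in E8D (2.38). Only serpin-6 was lower, with 61 UMIs in 1L1D and 132 in E8D (-2.54, -3.01 to -2.10). It passed through E8D alone, so this call followed from the threshold.

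Genes of sugar use and detoxification changed in part. Among genes for trehalose, the main blood sugar of insects, 6 of 9 were at least 2-fold higher and 2 lower at 1L1D, but of the 4 with at least 100 UMIs in both libraries 1 was higher and 2 were lower, with a median of -0.19. Treh-2, a trehalase, had 62.5 CPM in 1L1D and 1.31 CPM in E8D (5.58, 4.65 to 6.71), while the other trehalase gene, LOC693027, had 67.7 CPM in 1L1D and 212 CPM in E8D (-1.65, -1.76 to -1.54). The transporter LOC105841947, 1 of several annotated as Tret1, had 903 and 363 CPM (1.31). UDP-glycosyltransferases, which attach sugars to small molecules, were higher in 5 of 9 cases and lower in 2. Of the 5 with at least 100 UMIs in both libraries 2 were higher and 1 was lower, against 5.60% and 29.6% of all such genes. UGT41A2 had 394 CPM in 1L1D and 60.0 CPM in E8D (2.71, 2.57 to 2.86), and Ugt2 had 316 and 905 CPM (-1.52, -1.57 to -1.47). Glutathione transferases and cytochromes P450 were higher in 8 of 16 cases and lower in 3, and in 1 and 2 of the 7 cases with at least 100 UMIs in both libraries, where their median was -0.61. GSTe3 was practically limited to the embryo, with 5 UMIs in 1L1D and 759 in E8D (-8.68, -10.30 to -7.45), whereas GSTe5 had 868 and 55 UMIs (2.55, 2.16 to 2.97). In the list of antimicrobial and immune recognition genes, 3 of 18 passed, 2 of them higher and none lower. The lysozyme gene LOC101738343 had 45.0 CPM in 1L1D and 19.8 CPM in E8D (1.19), the recognition protein gene LOC101739885 had 158 UMIs in 1L1D and 1 in E8D, and PGRP-S1, a peptidoglycan recognition protein, had 37.0 CPM in 1L1D and 50.2 CPM in E8D (-0.44).

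Related enzyme genes stood at opposite extremes. LOC101741112, a xanthine dehydrogenase, which makes uric acid, had 1852 UMIs in 1L1D and 4 in E8D (7.42, 6.07 to 9.30), and the related LOC101738479 and LOC101736569 had 3 and 0 UMIs in 1L1D against 806 and 309 UMIs in E8D. LOC101745610, a carbonic anhydrase, had 0 UMIs in 1L1D and 443 in E8D, at least 398-fold lower at 1L1D. In the other direction, LOC101739819, described as a venom peptide-like protein, had 3472 and 0 UMIs, at least 429-fold higher at 1L1D, Suc1, named for a sucrase, had 1362 and 0 UMIs, at least 168-fold higher, and the zinc transporter LOC101740111 had 1917 and 4 UMIs (7.47, 6.11 to 9.35). The UMIs of some extreme genes lay in few barcodes. LOC101743853 had 1 UMI in 1L1D and 563 in E8D, and the E8D UMIs lay in only 8 barcodes. Of the 1362 Suc1 UMIs in 105 barcodes of 1L1D, 18.6% lay in a single barcode.

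The markers that the study assigned to its cell types, which were chosen from these same libraries and so are no independent evidence, differed between the stages for several types. All 5 markers of endoplasmic reticulum stress signaling cells (ERSS), a middle gland type, were at least 2-fold lower at 1L1D, led by LOC101740733, described as PXR1, with 3 UMIs in 1L1D and 4752 in E8D (-12.06, -14.34 to -10.51), the lowest ratio among the 5774 genes. None of the 5 had 100 UMIs in both libraries, so all passed through E8D alone. Such a gene had at least 14.5 CPM in E8D and under 5.39 CPM in 1L1D, so its lower call followed from the threshold. The summed level of the ERSS markers was 5.39 CPM in 1L1D and 1445 CPM in E8D. All 6 markers of liquid silk fibrosis cells (LSF) and all 7 of traction forces cells (TR), both of the anterior gland, were higher at 1L1D, though only 5 LSF markers and 1 TR marker had at least 100 UMIs in both libraries, with summed levels of 4866 and 943 CPM for LSF and of 2759 and 424 CPM for TR. In barcodes of 1105 to 3000 UMIs, 3 of the 6 LSF markers were at least 2-fold higher. LOC101743237, a marker of both, had 2571 CPM in 1L1D and 411 CPM in E8D (2.65). Of 5 markers of sericin protein-synthesizing cells (SPS), 3 were higher, though the 3 with at least 100 UMIs in both libraries had a median of -0.22, with the SRP40-like gene LOC101745935 at 719 CPM in 1L1D and 3.49 CPM in E8D (7.69, 7.11 to 8.33). Of 4 markers of fibroin protein-synthesizing cells (FPS), 3 were lower, among them LOC101745332 and Fkbp45, an immunophilin, with 99.3 CPM in 1L1D and 923 CPM in E8D (-3.22, -3.29 to -3.14). Of the remaining types' markers, 1 of 5 passed for DRR, 1 of 5 for ECR, 2 of 5 for FPC, 2 of 6 for CM and 2 of 6 for SPC.

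Some markers of other tissues were present, and some differed between the stages. Of the 10 fat body genes 6 had any UMI and 3 passed the threshold, with 1 higher, 1 lower and 1 within 2-fold. Apolipophorin (LOC100862791), the lipid carrier made by the fat body, had 704 CPM in 1L1D and 20.4 CPM in E8D (5.11, 4.87 to 5.36), while the lipoprotein gene LOC101735732 had 206 and 668 CPM (-1.70), so that the 10 fat body genes summed to 956 CPM in 1L1D and 715 CPM in E8D. The 9 muscle rows summed to 112 CPM in 1L1D and 53.6 CPM in E8D, with Kettin, a giant protein of the sarcomere, at 45.3 and 6.11 CPM (2.89, 2.45 to 3.38). AK, an arginine kinase that buffers energy in muscle and other tissues, had 3404 UMIs in 446 barcodes of 1L1D and 0 UMIs in E8D, at least 421-fold higher at 1L1D (a log2 bound of 8.72, and of 5.85 in barcodes of 1105 to 3000 UMIs). The 8 midgut rows summed to 77.9 CPM in 1L1D and 29.8 CPM in E8D, the 3 neuron rows to 231 and 340 CPM, the 4 trachea and basement membrane rows to 0.485 and 0.436 CPM, and the hemocyte gene PPO1 had 22 and 0 UMIs. The part of such cells in the other values was not tested. All 6 Osiris rows together had 0.377 CPM in 1L1D and 0 in E8D, and of 16 chemosensory protein genes only CSP9 passed, with 162 UMIs in 1L1D and 7 in E8D, 8.58-fold higher.

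Noncoding RNAs were few but took a large share of both libraries. Of 60 genes that RefSeq lists as lncRNA and that passed, 17 were at least 2-fold higher at 1L1D and 13 lower, against 697 higher and 1171 lower of 5380 protein-coding genes. The lncRNA genes held 10.9% of the UMIs of 1L1D and 9.37% of those of E8D, most of which came from LOC101736020 and LOC101737054 at 1L1D and from LOC101745133, LOC101745164 and LOC101737054 at E8D.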

How the data were processed

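The deposited matrices hold UMI counts per gene and barcode, made by the authors with Cell Ranger 3.1.0 and STAR against the assembly ASM15162v1. They are not corrected for transcript length. From these counts, barcodes were kept by the limits given above, UMIs were summed per library and scaled to CPM, and genes with at least 100 UMIs in 1 library were compared. Ratios have exact binomial (Clopper-Pearson) 95% intervals; a count of 0 was set to a floor of 3 counts per library. Named genes were the 15 highest and 15 lowest ratios, the 10 most abundant genes of each library, in each gene list the 6 most abundant members and the 4 highest and 4 lowest ratios, and all silk protein, silk gland transcription factor and ecdysone genes. Shares of barcodes were taken after thinning each barcode to 500 UMIs. Members and lists were chosen with earlier results of these data known. Gene names and neighbors came from the RefSeq annotation of ASM3026992v2, whose build differs from that of the files, so no positions or sequences are given. Alternatives were 12 planned and 3 added after the data were seen. edgeR 4.0.16 and DESeq2 1.42.0 (R 4.3.3) supplied scaling factors only. Python 3.11.15, numpy 2.4.6, SciPy 1.17.1 and matplotlib 3.10.9 were used, and the ratio script was tested on simulated data.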

Additional observations from a re-analysis of the deposited data

How the results depend on the processing

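No paired analysis was possible because each stage had 1 library. The count of genes at least 2-fold higher at 1L1D was 785, and became 1406 with at least 10 UMIs in 1 library, 210 with at least 100 UMIs in both, 425 with at least 20 CPM in 1 library and 275 in barcodes of 1105 to 3000 UMIs. The count at least 2-fold lower was 1246, and became 1864 with at least 10 UMIs in 1 library, 1762 (with 628 higher) without the 4 stage genes in the totals, 811 with edgeR TMM factors and 502 in barcodes of 1105 to 3000 UMIs. With at least 100 UMIs in both libraries the medians turned negative for trehalose use (-0.19), glutathione transferases and cytochromes P450 (-0.61, and -0.35 with at least 20 CPM in 1 library) and the SPS markers (-0.22). The limits of 100 UMIs in both and of 20 CPM and the range of UMIs test fewer genes, that of 10 UMIs tests more, and the TMM factors change only the scaling; other causes were not tested. Of 94 named genes with a 2-fold ratio, 17 lost it under at least 1 alternative. A gene under the threshold of an alternative was not compared there and was not counted as lost. Of the 94, 59 could be compared with at least 100 UMIs in both libraries. In barcodes of 1105 to 3000 UMIs 75 could be compared, and 89 with at least 20 CPM in 1 library. The settings without the 4 stage genes, of 20 CPM and of 1105 to 3000 UMIs were chosen after seeing the data. One library per stage, the greater depth of 1L1D and free RNA limit all values.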

Other observations

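Genes of ribosome production in the nucleolus were lower at 1L1D, in a list chosen after the values were seen. Of 19 genes 17 had at least 100 UMIs in 1 library, 13 of these were at least 2-fold lower and none higher, with a median log2 ratio of -1.61 and a summed level of 2063 CPM in 1L1D and 6855 CPM in E8D. Of all genes 21.6% were at least 2-fold lower. Among genes with at least 100 UMIs in both libraries the share was 29.6% and the median -0.56. LOC101746268, nucleolin, had 153 CPM in 1L1D and 775 CPM in E8D (-2.34, -2.40 to -2.27). LOC101742289, fibrillarin, which methylates ribosomal RNA, had 85.0 CPM in 1L1D and 371 CPM in E8D (-2.13), and LOC101741956, a nucleolar and coiled-body phosphoprotein, had 110 CPM in 1L1D and 659 CPM in E8D (-2.58). The cytoplasmic ribosomal proteins differed from them in direction, with a median of 0.25.

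Splicing genes, also listed after their values were seen, were lower in 9 of 15 cases and higher in 1, with a median of -1.23. Of all genes 21.6% were lower and 13.6% higher, and 29.6% were lower among those with at least 100 UMIs in both libraries. The small nuclear ribonucleoprotein genes LOC732941 (G) and LOC732904 (E) had log2 ratios of -2.37 and -2.35, while LOC101735777, the U1 70 kDa protein, had 122 CPM in 1L1D and 68.3 CPM in E8D (0.83, within 2-fold).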
